A study of Mus musculus with 8 samples.

Results

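The genes described here are 10 antiviral effectors that interferons switch on: Ifit1, Ifit2, Ifit3, Mx1, Mx2, Isg15, Usp18, Isg20, Rsad2 and Bst2. They were measured in the mouse line RAW264.7, whose cells resemble macrophages. Probes were taken by the gene name in the array annotation, which gave 15 probes, and 9 of the 10 genes were among the 15440 genes that passed the filter on dim probes. The exception was Mx1. The 10 genes were chosen with their measured values in all treatment comparisons in view, so their levels and differences, and the counts of calls among them, are given as a description, and no gene's own p-value is printed.

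The arrays held cells given interleukin-13 (IL-13) together with all-trans retinoic acid (ATRA), ATRA alone, IL-13 alone, or neither (control), each for 12 h and for 24 h. ATRA is a ligand of the retinoic acid receptors, and IL-13 is a cytokine of alternative macrophage activation. There were 8 arrays, with 1 array per treatment and time, and all cells were the same line in the same serum-containing medium. The labels give no doses and leave unsaid whether each array had a culture of its own. The errors and p-values below therefore reflect how far the treatment differences varied between the 12 h and the 24 h arrays. That spread may be technical or a real change with time, and these cannot be told apart.

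Interferon-stimulated genes are read out by a short pathway. Type I interferon binds the receptor IFNAR, the kinases JAK1 and TYK2 phosphorylate STAT proteins, and STAT2 and IRF9 are part of the complex ISGF3, which binds the interferon-stimulated response element (ISRE) in promoters. Macrophages are known for a low resting level of this programme, maintained by small amounts of interferon beta. IFIT proteins bind viral RNA and block its translation, MX proteins are dynamin-like GTPases that trap viral components, and ISG15 is a ubiquitin-like protein that is attached to other proteins.

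In RefSeq's GRCm38.p6 annotation the IFIT genes lie side by side on chromosome 19, with Ifit2 at chr19:34550550-34576534, Ifit3 at chr19:34583119-34588982, its close paralogue Ifit3b at chr19:34607530-34613403 and Ifit1 at chr19:34640889-34650009. Mx1 (chr16:97447035-97462906) and Mx2 (chr16:97536081-97560901) are neighbours, and that annotation lists both as transcribed pseudogenes. The others are protein-coding genes on separate chromosomes, namely Isg15 (chr4:156199424-156200818), Usp18 (chr6:121245906-121270917), Isg20 (chr7:78913396-78920396), Rsad2 (chr12:26442743-26456452) and Bst2 (chr8:71534255-71537472).

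Promoter windows from RefSeq (GRCm38.p6), from 250 bases before to 50 bases after a gene's start, were matched by symbol for 7 of the 10 genes, in 10 windows. Mx1, Mx2 and Usp18 had no window. The windows were searched on both strands for the ISRE core GAAANNGAA, which reads TTCNNTTTC from the other strand. The core was present in the windows of 5 of the 7 genes, Ifit1, Ifit3, Isg15, Rsad2 and Bst2, while 8.55% of all 32817 promoter windows and 9.75% of all 26994 genes with a window held it. The stretches that hold it are shown because these 5 genes share this element. The choice of genes did not use promoter sequence, but it took genes that interferons switch on, so the element is given as a description. Each is printed 5′ to 3′ on the gene's own strand, with the letters of every core match in capitals, and runs of capitals longer than 1 core are overlapping matches.
Ifit1: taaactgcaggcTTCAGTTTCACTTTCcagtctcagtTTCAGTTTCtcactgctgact
Ifit3: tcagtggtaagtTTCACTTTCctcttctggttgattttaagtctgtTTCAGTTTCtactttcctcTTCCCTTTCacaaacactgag
Isg15: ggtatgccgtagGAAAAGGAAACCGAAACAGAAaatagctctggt
Rsad2: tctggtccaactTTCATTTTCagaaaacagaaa
Bst2: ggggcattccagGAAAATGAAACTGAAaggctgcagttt

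These stretches lie at chr19:34640768-34640825 (Ifit1, plus strand), chr19:34583362-34583447 (Ifit3, plus strand), chr4:156200864-156200908 (Isg15, minus strand), chr12:26456551-26456583 (Rsad2, minus strand) and chr8:71537576-71537614 (Bst2, minus strand). Ifit1, Ifit3 and Isg15 held 3 matches each, Bst2 held 2 and Rsad2 held 1. The 5 stretches together span positions -167 to -46 relative to the start used for each window. For Ifit1, Isg15, Rsad2 and Bst2 that start is the gene's annotated 5′ end, while the Ifit3 window is set on a start at position 34583529, which lies 410 bases inside the annotated gene. No match was present in these windows of Ifit2 (2 windows) or Isg20 (3 windows), which says only that these letters are not there. The STAT site core TTCNNNGAA was present in 3 of the 7 genes, Ifit2, Isg20 and Bst2, against 9.55% of all genes with a window, and in 3 of their 10 windows, against 8.29% of all windows, and in Bst2 it overlaps the ISRE core.

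On the 8 arrays the 75th percentile of the processed signal lay between 448 and 739, and 54.1% to 61.4% of probes were well above background on an array. All 7 macrophage markers, among them Cd68, Csf1r and Adgre1, were well above background on all 8 arrays. Of 23 markers of 6 other cell types, 12 were not well above background on any array, all 4 epithelial ones among them, and 4 were so on all 8 arrays, Cd3e (T cells), Col1a2 (fibroblasts), Kdr (endothelium) and S100a8 (neutrophils). The summed neutrophil signal was 377 at 12 h and 118 at 24 h with both agents, 308 and 137 with ATRA, 420 and 186 with IL-13, and 306 and 141 in control cells, so it was lower at 24 h in treated and control cells alike. The summed scaled signal of the macrophage markers was 268009 to 312031 with IL-13 and ATRA together, 336921 to 353460 with ATRA, 276076 to 370197 with IL-13 and 351306 to 361908 in control cells. The part of either sum in the results was not tested. Targets of the agents were higher: Tgm2, a retinoic acid target, was 4.50 ± 0.39 log2 units above control with ATRA (adjusted p = 0.0182), and Cish, a STAT target, was at least 173-fold higher with IL-13 (adjusted p = 0.00176). Slide 1 carried the 12 h arrays and slide 2 the 24 h arrays, so an effect of time cannot be told apart from one of the slide. The treatments were all present on each slide.

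Signals below are processed array signals scaled to each array's 75th percentile, and each gene is read from its brightest probe, so levels of different genes are not set against each other. Taken as a group, the 9 measured effectors were lowest with both agents, intermediate with ATRA and with IL-13, and highest in control cells. The median log2 difference over the 9 genes was -2.28 for IL-13 with ATRA minus control, -1.76 for ATRA minus control and -1.11 for IL-13 minus control, where the medians over all 15440 genes were -0.03, -0.02 and -0.00227. These 3 comparisons share the control arrays, and without the control array at 24 h the medians were -1.69, -1.28 and -0.62 in the same order. In bulk RNA, fewer responding cells and less RNA per cell cannot be told apart.

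**Figure D1:**
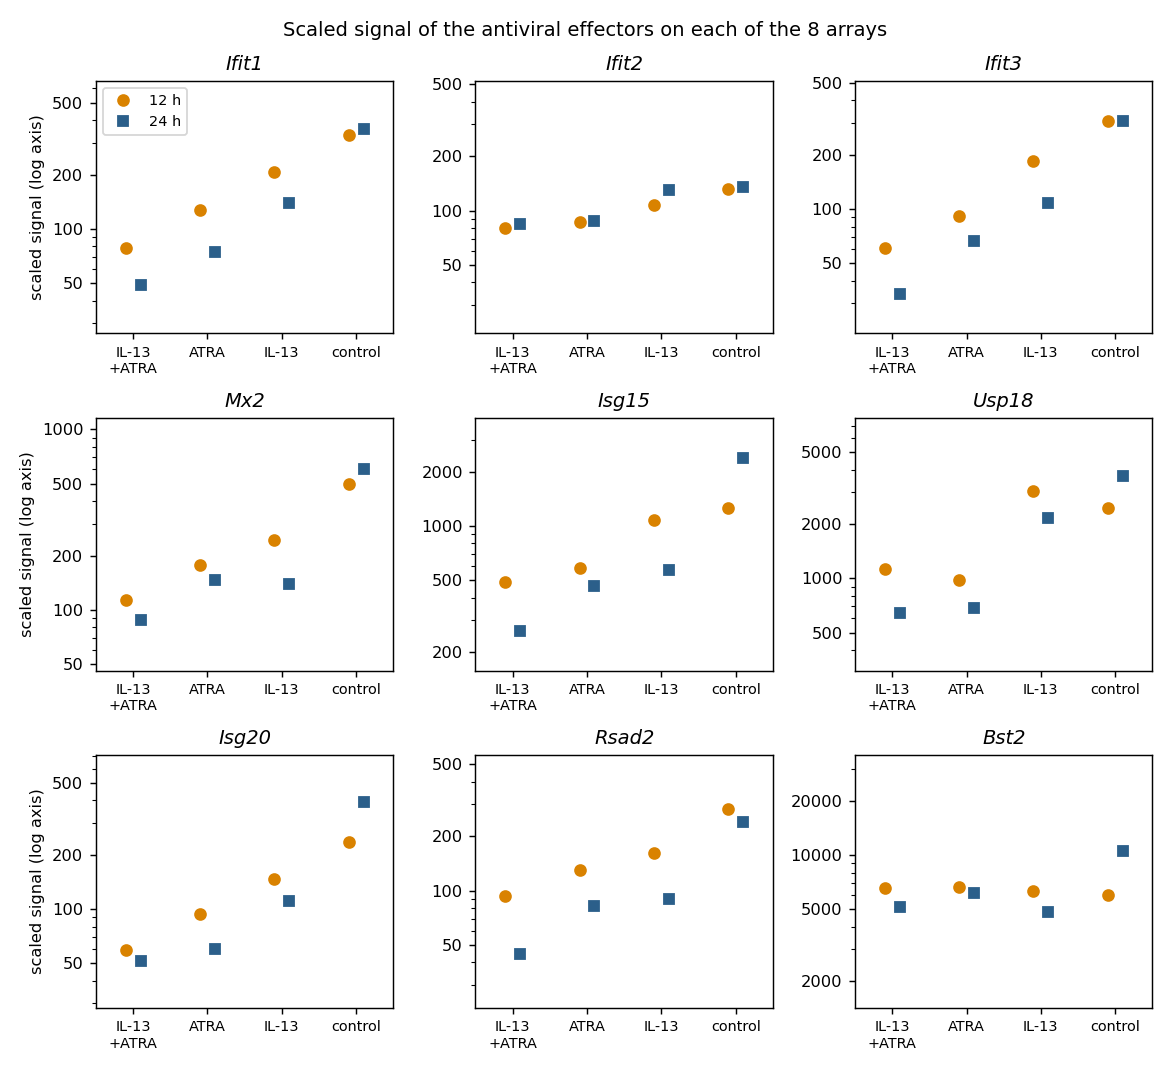
Scaled signal (log axis) of the 9 measured antiviral effectors on each array, with treatments from left to right as IL-13 with ATRA, ATRA, IL-13 and control. Circles are 12 h arrays and squares 24 h arrays, 1 array each. For Ifit3 the signals lay between 34.0 and 61.0 with both agents, against 306 and 308 in control cells, while those of Bst2 at 12 h lay between 6032 and 6669 in all 4 treatments.

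The IFIT family split into a pair with wide differences and a member with narrow ones. Ifit1, which recognizes foreign RNA caps, had scaled signals of 78.0 at 12 h and 48.8 at 24 h with IL-13 and ATRA, 128 and 74.1 with ATRA, 207 and 139 with IL-13, against 329 and 355 in control cells. Ifit3, whose human counterpart binds and stabilizes IFIT1, had 61.0 and 34.0 with both agents, 92.0 and 66.5 with ATRA, 184 and 108 with IL-13, against 306 and 308 in control cells. Both genes followed the same order of treatments at each time, and the 2 control arrays differed by at most 1.08-fold. For Ifit3 no 2 treatments overlapped, and for Ifit1 the 12 h array with both agents was above the 24 h ATRA array.

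Ifit2, whose human counterpart binds AU-rich RNA, had 80.1 and 84.6 with both agents, 86.9 and 87.4 with ATRA, 107.1 and 129.7 with IL-13, against 131 and 136 in control cells. Its whole range over the 8 arrays was 1.70-fold, against 7.27-fold for Ifit1 and 9.05-fold for Ifit3. Its IL-13 array at 24 h nearly reached the control arrays. A second, dimmer Ifit2 probe gave 60.7 and 49.0 with both agents, 56.1 and 59.7 with ATRA, 59.7 and 76.0 with IL-13, against 77.8 and 95.8 in control cells, so the narrow range was seen with both probes. The probe of Ifit3b, the paralogue next to Ifit3, was well above background on the 2 control arrays only (11.8 and 8.60). How far the Ifit3 and Ifit3b probes read each other's RNA was not tested.

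On the log2 scale of the fit, Ifit3 differed from control by -2.75 ± 0.23 with both agents, by -1.97 ± 0.23 with ATRA and by -1.13 ± 0.23 with IL-13. These are 6.74-fold, 3.92-fold and 2.18-fold lower levels. The values of Ifit1 were -2.47 ± 0.23, -1.81 ± 0.23 and -1.01 ± 0.23 in the same order. Ifit2 gave -0.70 ± 0.12 with both agents and -0.61 ± 0.12 with ATRA, and its IL-13 value of -0.18 ± 0.12 was within 2 standard errors of 0.

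Of the MX GTPases only Mx2 could be measured. Its scaled signals were 114 and 87.8 with both agents, 178 and 147 with ATRA, 244 and 139 with IL-13, against 497 and 607 in control cells. Mx2 had the largest IL-13 difference of the 9 genes, -1.57 ± 0.26, and was the one member at least 2-fold lower with IL-13 at both times (4.35-fold at 24 h and 2.04-fold at 12 h). With ATRA it differed from control by -1.76 ± 0.26 and with both agents by -2.46 ± 0.26. The arrays of ATRA and IL-13 overlapped, and both treatments lay below the control arrays. The 2 probes of Mx1 were well above background on 1 of 16 readings, so it has no difference here.

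The ISG15 pair comprises the modifier Isg15 and Usp18, the protease that removes ISG15 from proteins and dampens signalling at the interferon receptor. Isg15 had 487 and 263 with both agents, 587 and 467 with ATRA, 1085 and 574 with IL-13, against 1259 and 2380 in control cells. Usp18 had 1132 and 642 with both agents, 980 and 686 with ATRA, 3058 and 2158 with IL-13, against 2467 and 3704 in control cells. Usp18 thus separated the treatments by ATRA: the 4 arrays with ATRA were at or below 1132, and the 4 without it were at or above 2158.

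Usp18 was higher with IL-13 than in control cells at 12 h (by 0.31 on the log2 scale) and lower at 24 h (-0.78), which gave a fitted difference of -0.24 ± 0.34. With ATRA it differed from control by -1.88 ± 0.34, and with both agents by -1.83 ± 0.34, so that adding IL-13 to ATRA made a difference of 0.06 ± 0.34. Isg15 at 12 h was close to control with IL-13 (-0.21) and far below it at 24 h (-2.05), and its standard error of 0.46 was the widest of the 9 genes. With both agents it differed from control by -2.28 ± 0.46 and with ATRA by -1.72 ± 0.46.

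Isg20, an exonuclease that degrades RNA, had 59.4 and 51.6 with both agents, 93.3 and 60.1 with ATRA, 147 and 112 with IL-13, against 236 and 391 in control cells. No 2 treatments overlapped, although the 24 h ATRA array was only just above the arrays with both agents. The ATRA difference, -2.02 ± 0.33, was the largest of the 9 genes, and the values with both agents and with IL-13 were -2.46 ± 0.33 and -1.24 ± 0.33. A second probe of Isg20 gave mean differences from control of -2.39 with both agents, -1.76 with ATRA and -1.01 with IL-13.

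Rsad2 encodes viperin, an enzyme that, in human cells, makes a chain-terminating nucleotide. Its brightest probe had 93.8 and 44.6 with both agents, 129 and 82.1 with ATRA, 162 and 89.3 with IL-13, against 282 and 239 in control cells. All 6 treated arrays lay below both control arrays, while the 3 treatments overlapped each other. Its differences from control were -2.004 ± 0.21 with both agents, -1.33 ± 0.21 with ATRA and -1.11 ± 0.21 with IL-13.

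The 2 dimmer probes of Rsad2 disagreed with the brightest one on the combined treatment. One gave 17.9 and 24.8 with both agents, 26.2 and 16.3 with ATRA, 23.3 and 14.9 with IL-13, against 49.98 and 52.30 in control cells. The other gave 14.8 and 18.1 with both agents, 23.0 and 14.5 with ATRA, 47.0 and 15.5 with IL-13, against 37.7 and 40.1 in control cells. By these probes the arrays with both agents were not below those with 1 agent at 24 h, and on the second of them the IL-13 array at 12 h was above control.

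Bst2 encodes tetherin, which holds budding virus particles at the cell surface. It had 6580 and 5186 with both agents, 6669 and 6193 with ATRA, 6347 and 4821 with IL-13, against 6032 and 10555 in control cells. At 12 h the control array was the lowest of the 4, and at 24 h it was the highest, so every treatment overlapped control. The differences at 24 h were -1.03 with both agents, -0.77 with ATRA and -1.13 with IL-13, and all of them rest on the control array at 24 h. The fitted values, -0.45 ± 0.31, -0.31 ± 0.31 and -0.53 ± 0.31 in that order, were within 2 standard errors of 0.

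**Figure D2:**
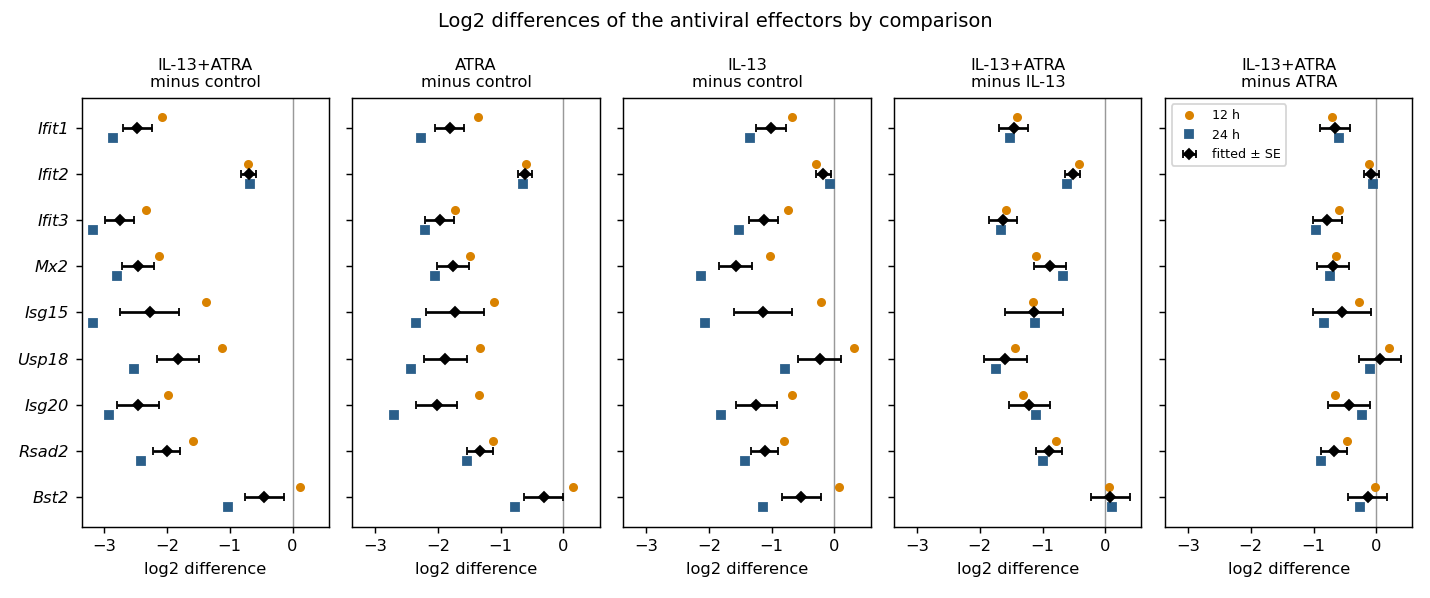
Log2 differences of the 9 measured effectors in 5 comparisons. Circles are 12 h and squares 24 h differences between 2 arrays, and diamonds are fitted differences with bars of ± 1 standard error from limma. With both agents 8 of the 9 fitted differences from control lay between -2.75 and -0.70, while the difference between both agents and ATRA lay between -0.78 and 0.06.

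Set against the whole array, the counts of effectors called lower (limma, adjusted p under 0.05 by Benjamini-Hochberg over the 15440 genes) were as follows, and they are a description because the genes were chosen on these contrasts. With both agents against control 8 of 9 were called lower, all but Bst2, where 5.48% of all genes were. With ATRA against control 3 of 9 were called lower, Ifit1, Ifit3 and Mx2, against 0.959% of all genes. With IL-13 against control limma called 0 of 9, against 0.589% of all genes, while 5 of 9 had an unadjusted p under 0.05, as had 23.9% of all genes. The counts rested on single arrays. With both agents, 2 effectors were called without the control array at 24 h, 1 without the 24 h array with both agents, 3 without its 12 h array and 5 without either ATRA array. With ATRA, 0 were called without the control array at 24 h, without either ATRA array or without either array with both agents. With IL-13, 1 was called without the IL-13 array at 12 h.

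By size alone, 7 of 9 were at least 2-fold lower than control at both times with both agents (2.93% of all genes) and 7 of 9 with ATRA (1.55%), in each case all but Ifit2 and Bst2. With IL-13 the count was 1 of 9 (1.59%), Mx2. The arrays did not overlap control for 8 of 9 genes with both agents, where both treated arrays were below both control arrays for 30.6% of all genes, for 8 of 9 with ATRA (25%) and for 7 of 9 with IL-13 (24%). Bst2 overlapped in all 3 comparisons and Usp18 with IL-13. These counts use each gene's brightest probe. The 2 dimmer Rsad2 probes were also at least 2-fold lower at both times with both agents. With ATRA they differed by only -0.93 and -0.72 at 12 h. One of them overlapped control with IL-13, with 47.0 at 12 h against 37.7 and 40.1 in control cells.

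Adding ATRA to IL-13 was set against IL-13 alone. Usp18 differed by -1.59 ± 0.34, Ifit3 by -1.63 ± 0.23, Ifit1 by -1.46 ± 0.23, Isg20 by -1.21 ± 0.33 and Isg15 by -1.14 ± 0.46, and each of these 5 was at least 2-fold lower at both times (1.61% of all genes). Mx2 (-0.88 ± 0.26) and Rsad2 (-0.90 ± 0.21) were nearer, and Bst2 did not differ beyond its error (0.08 ± 0.31). The 2 dimmer Rsad2 probes gave mean differences of 0.17 and -0.73. The median over the 9 genes was -1.14, and it was nearly equal at the 2 times (-1.11 at 24 h and -1.16 at 12 h). The arrays did not overlap for 7 of 9 (25.9%), Ifit2 among them by its brightest probe, while its dimmer probe did overlap. The call rule counted 2 of 9, Ifit1 and Ifit3 (1.48% of all genes). The count was 0 with normexp background correction, where the median was -0.61, when dim probes were kept, when the fit held only the arrays compared, with time left out or as a random block, and without any 1 of the 6 treated arrays.

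Adding IL-13 to ATRA made smaller differences. Ifit3 differed by -0.78 ± 0.23, Mx2 by -0.70 ± 0.26, Rsad2 by -0.67 ± 0.21 and Ifit1 by -0.66 ± 0.23, and all 4 were lower at both times by their brightest probes. The 2 dimmer Rsad2 probes were higher than with ATRA at 24 h, by 0.60 and 0.32. Ifit2 (-0.08 ± 0.12) and Usp18 (0.06 ± 0.34) stayed near 0. The median over the 9 genes was -0.55, and -0.30 with normexp background correction. Limma called 0 of 9 (0.0972% of all genes were called lower), 4 of 9 had an unadjusted p under 0.05 (12.9%), 0 of 9 were at least 2-fold lower at both times (0.725%), and 4 of 9, Ifit2, Ifit3, Mx2 and Isg20, did not overlap (25.9%). The dimmer Ifit2 probe did overlap, with 60.7 and 49.0 with both agents against 56.1 and 59.7 with ATRA.

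The combined treatment was then compared with the sum of the single-agent differences. At 12 h the measured value was nearest to the sum for Isg20, at -1.99 with both agents and -2.01 by the sum, and for Ifit1, at -2.08 and -2.04. It was farthest from it for Mx2, at -2.13 and -2.51, and for Rsad2, at -1.59 and -1.92. The median departure over the 9 genes at 12 h was 0.03 log2 units. At 24 h every effector except Ifit2 was more than 0.5 log2 units less reduced than the sum, with Isg20 at -2.92 against -4.51, Mx2 at -2.79 against -4.17 and Isg15 at -3.18 against -4.40. The median departure at 24 h was 0.75, and Ifit2 departed by 0.02. These values are from the brightest probes. The 2 dimmer Rsad2 probes departed by 0.55 and -0.95 at 12 h, and by 2.41 and 1.69 at 24 h. The second Isg20 probe departed by -0.26 at 12 h and 1.02 at 24 h, and the dimmer Ifit2 probe by 0.49 and 0.05.

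In the fit over both times the departure was positive for all 9 genes, from 0.10 (Ifit2) to 0.88 ± 0.36 (Mx2), with a median of 0.39. Limma called it for 0 of 9 genes (0.0194% of all genes in either direction), and 0 of 9 had an unadjusted p under 0.05 (3.65% of all genes). The control arrays enter the departure: the median was -0.00498 without the one at 24 h, where 5 of the 9 departures turned negative, and 0.89 without the one at 12 h. It was 0.19 without the 12 h array with both agents, 0.63 without its 24 h array and 0.21 without the IL-13 array at 24 h.

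**Figure D3:**
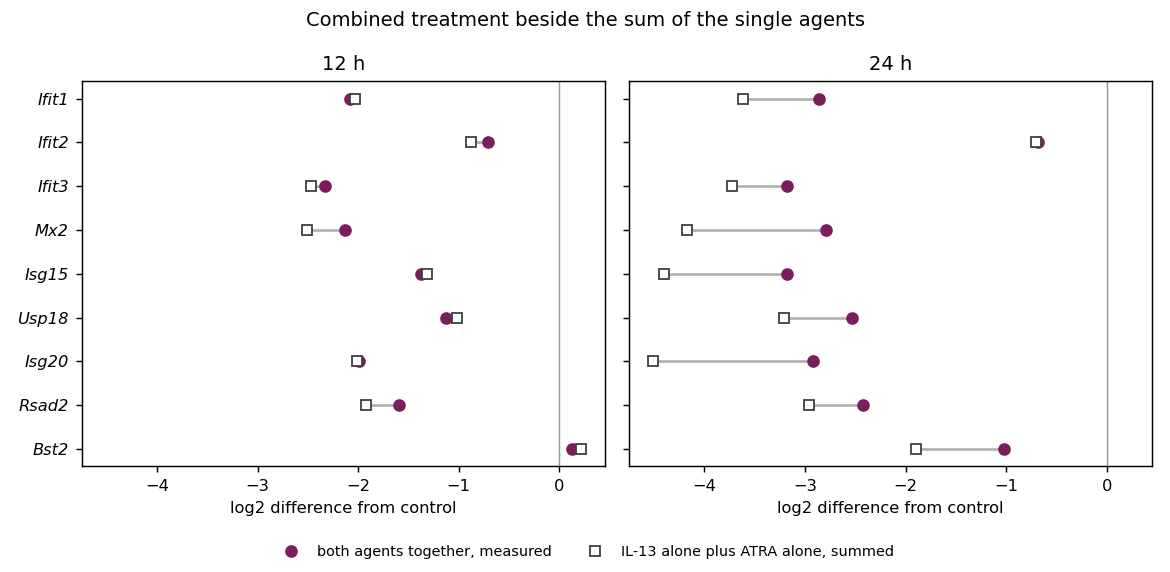
Log2 difference from control measured with both agents together (filled circles) and the sum of the differences with IL-13 alone and ATRA alone (open squares), for the 9 measured effectors at 12 h and at 24 h, 1 array per treatment and time. Each gene is shown by its brightest probe, and the 2 dimmer Rsad2 probes, not shown, departed further at both times. At 12 h the 2 symbols lie within 0.38 log2 units for each gene, and at 24 h they lie up to 1.59 apart (Isg20).

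At 24 h the treated arrays were mostly lower than at 12 h, and the control arrays were mostly higher or nearly equal. With IL-13 and ATRA, 24 h over 12 h was 0.540-fold for Isg15, 0.476-fold for Rsad2 and 0.558-fold for Ifit3. By the brightest probes, this ratio was below 1 in all 3 treatments for every measured member other than Ifit2. With both agents the 2 dimmer Rsad2 probes were instead higher at 24 h, at 24.8 against 17.9 and at 18.1 against 14.8. They were lower at 24 h with ATRA and with IL-13. In control cells Isg15 was 1.89-fold higher at 24 h than at 12 h, Bst2 1.75-fold, Isg20 1.66-fold and Usp18 1.502-fold, while Ifit1, Ifit2, Ifit3, Mx2 and Rsad2 were between 0.846-fold and 1.22-fold. The median difference from control was wider at 24 h: -2.79 at 24 h and -1.59 at 12 h with both agents, -2.21 and -1.33 with ATRA, and -1.42 and -0.67 with IL-13.

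A further fit let the effects depend on time and kept 1 residual degree of freedom. In it, the effect of IL-13, averaged over cells with and without ATRA, differed between 24 h and 12 h by -1.20 ± 0.38 for Isg15, -0.72 ± 0.30 for Bst2 and -0.70 ± 0.26 for Usp18. Limma called 0 of 9 members for this difference (0% of all genes) with 3 of 9, Ifit3, Isg15 and Rsad2, at an unadjusted p under 0.05 (9.94% of all genes). For ATRA it called 0 of 9 (0% of all genes) with 0 of 9 at an unadjusted p under 0.05 (9.57%), and the values ran from -0.71 (Usp18) to -0.07 (Mx2).

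Among themselves the effectors followed a common profile over the 8 arrays, with Bst2 and Ifit2 at its edge. The Pearson r of a member with the mean of the others was 0.988 for Ifit1, 0.986 for Ifit3, 0.981 for Isg15, 0.978 for Isg20, 0.958 for Mx2 and 0.936 for Rsad2. It was 0.884 for Usp18, 0.823 for Ifit2 and 0.599 for Bst2. These are descriptions over 8 arrays that share treatments and slides.

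Of the 12701 other genes with a RefSeq symbol, those whose profile was most like the mean of the 9 effectors were Xaf1 (r = 0.996), Trim30a (0.994), Dhx58 (0.993), Sp100 (0.993), Trim30d (0.992), Gbp5 (0.992), Apol9b (0.991), Eif2ak2 (0.989), Slfn5 (0.988) and Trim34a (0.987). The median r over all these genes was 0.01. Slfn5, a Schlafen family gene, differed from control by -2.73 with both agents, -2.14 with ATRA and -1.46 with IL-13. Apol9b differed by -2.41, -2.02 and -1.20 in the same order. Of the 100 most similar genes, 30 were among 77 tested genes of a list of the interferon pathway.

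That list held 84 genes of the pathway outside the effectors, of which 82 were on the array and 77 were tested. With both agents 35 of the 77 were called lower than control, where 5.48% of all genes were, and 2 higher, and the list's median log2 difference was -1.01. With ATRA 10 were called lower (0.959% of all genes) and 1 higher (median -0.75), and with IL-13 5 lower (0.589%) and 1 higher (median -0.44). Over all 15440 genes, calls in either direction numbered 1313 with both agents, 287 with ATRA and 196 with IL-13. Of these, 846, 148 and 91 were lower. Leaving out any 1 array brought the 10 to between 0 and 5 and the 5 to between 0 and 4. The 35 became 6 without the control array at 24 h, 5 without the 24 h array with both agents and 7 without the 12 h array with both agents.

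Upstream of the effectors, the ligand was near background. On the arrays with both agents Ifnb1, interferon beta, read 3.43 and 3.97 and on those with ATRA 3.20 and 8.06, none of them well above background. It was well above background on 3 arrays, the IL-13 array at 12 h (18.0) and the 2 control arrays (16.8 and 12.8). Ifna2, Ifna4, Ifng and Ifnl3 had no probe that passed the filter.

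The receptor genes Ifnar1 and Ifnar2 and the kinase gene Jak1 had small differences that did not pass the test. With both agents minus control, Ifnar1 differed by 0.03 ± 0.13 (adjusted p = 0.901), Ifnar2 by -0.30 ± 0.11 (adjusted p = 0.155) and Jak1 by -0.12 ± 0.16 (adjusted p = 0.652) in limma. Stat2 and Irf9, whose products are part of ISGF3, passed it. Stat2 fell in all 3 comparisons with control: it differed by -1.60 ± 0.10 log2 units with both agents (adjusted p = 0.00402), -0.75 ± 0.10 with ATRA (adjusted p = 0.0429) and -0.93 ± 0.10 with IL-13 (adjusted p = 0.0331). Irf9 fell with both agents (-0.98 ± 0.16, adjusted p = 0.0274). Irf7, which amplifies interferon production, had a difference of -1.74 ± 0.42 that did not pass (adjusted p = 0.0644).

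Socs1, an inhibitor of JAK signalling, was the one gene of this group called higher with IL-13 (2.61 ± 0.24, adjusted p = 0.0228), and it stayed 2.54 ± 0.24 above control with both agents (adjusted p = 0.00878). With ATRA alone its difference was -0.35 ± 0.24 (adjusted p = 0.59). Ifnar1 (0.40 ± 0.13, adjusted p = 0.168) and Ifngr2 (0.41 ± 0.12, adjusted p = 0.137) were also higher with IL-13 at both times, but did not pass the test. Irf8, a macrophage lineage factor, was higher after ATRA was added to IL-13 (0.90 ± 0.14, adjusted p = 0.0444). Of the 16 receptor and signalling genes, 2 were called lower (5.48% of all genes) and 1 higher with both agents against control.

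Among 13 sensors and adaptors, the RNA sensors Dhx58 (-1.96 ± 0.25, adjusted p = 0.0157) and Ifih1 (-1.04 ± 0.16, adjusted p = 0.0253) and the nucleic acid sensor Zbp1 (-2.21 ± 0.28, adjusted p = 0.0157) fell with both agents. Ikbke, a kinase that activates IRF3, moved the other way: it rose by 2.98 ± 0.19 with both agents (adjusted p = 0.00402) and by 2.47 ± 0.19 with ATRA (adjusted p = 0.0141), while its IL-13 difference was 0.53 ± 0.19 (adjusted p = 0.187). Mavs, Sting1, Tbk1, Myd88 and Ticam1, which relay the signals of such sensors, differed from control with both agents by between -0.31 and 0.10, and none passed the test.

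Of the 3 enzymes that attach ISG15 to proteins, 2 were called lower with both agents (5.48% of all genes). Uba7, its activating enzyme, differed by -1.31 ± 0.15 with both agents (adjusted p = 0.0119) and Ube2l6, its conjugating enzyme, by -1.41 ± 0.21 (adjusted p = 0.0223), while the ligase Herc6 had -1.04 ± 0.24 (adjusted p = 0.0579). Of 8 genes of the oligoadenylate synthetase system 5 were called lower with both agents (5.48% of all genes). Oas3 (-2.82 ± 0.21, adjusted p = 0.00596) and Oas2 (-2.38 ± 0.17, adjusted p = 0.00532) were among them, and both also fell with each single agent. A second Oas3 probe gave smaller mean differences, -1.63 with both agents, -1.33 with ATRA and -0.818 with IL-13. A second Oas2 probe gave -2.73 with both agents.

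Of 33 other interferon-stimulated genes, 21 were called lower with both agents (5.48% of all genes) and 0 higher. Examples are the guanylate-binding protein Gbp3 (-2.48 ± 0.18, adjusted p = 0.00552), the nucleotide kinase Cmpk2 (-2.04 ± 0.25, adjusted p = 0.0145), which is next to Rsad2 in the mouse genome, Ifi204, a DNA sensor (-1.59 ± 0.13, adjusted p = 0.00623) and the RNA-activated kinase Eif2ak2 (-1.10 ± 0.13, adjusted p = 0.0135). The membrane proteins Ifitm2 and Ifitm3, which block virus entry, had -0.30 (adjusted p = 0.136) and -0.16 (adjusted p = 0.706). Of 3 tested chemokines, 2 were called lower (5.48% of all genes), Cxcl10 (-2.71 ± 0.35, adjusted p = 0.0163) and Cxcl11 (-3.53 ± 0.46, adjusted p = 0.0168). Cxcl11 was well above background on 1 of the 2 arrays with both agents. Ccl5 had -0.89 ± 0.27 (adjusted p = 0.102).

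**Figure D4:**
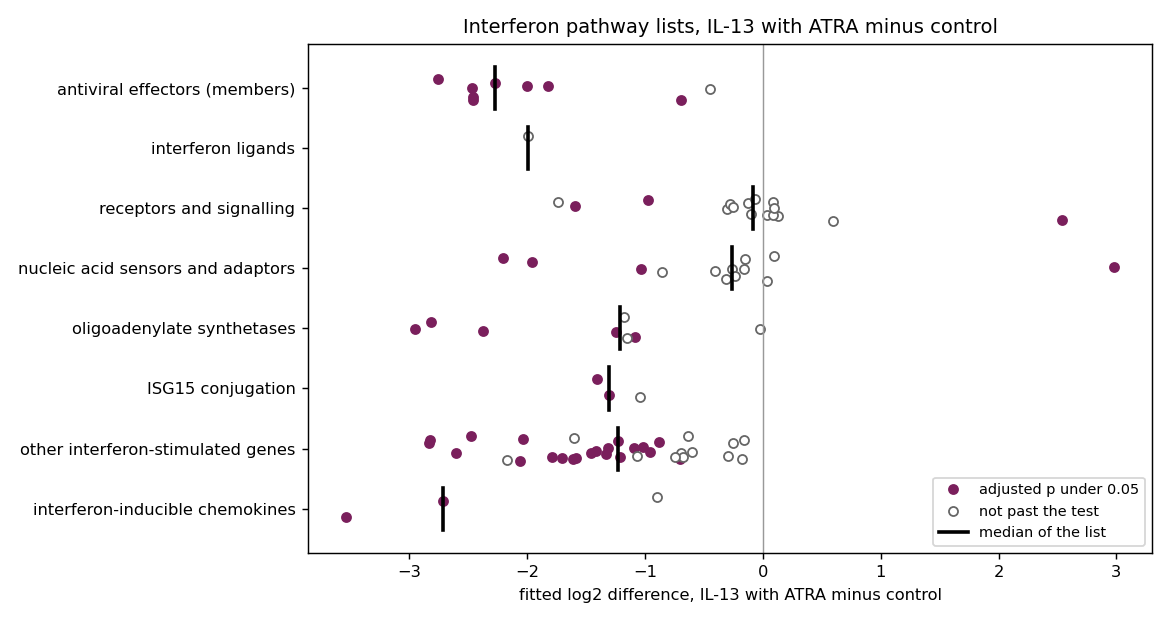
Fitted log2 difference of each tested gene, IL-13 with ATRA minus control, for the 9 effectors and for the lists of the interferon pathway. Filled points passed an adjusted p under 0.05 in limma, open points did not, and black bars are medians; the effectors are shown as a description, and the single ligand, Ifnb1, was not well above background with both agents. The effectors have a median of -2.28, the receptor and signalling genes one of -0.08, and Socs1 (2.54) and Ikbke (2.98) lie to the right of 0.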

How the data were processed

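Total RNA of RAW264.7 cells was hybridized to 8 one-colour Agilent arrays (design 014868). Per the file headers, the authors read them with Feature Extraction 10.7.1.1, and its processed signals, with unit intensity and background subtracted, were used here. The 0 or 1 flags (other) per spot were also deposited, per the file headers. The authors' deposited log2 table, whose normalization is not given in the sources used here, served as an alternative.

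Here each array's log2 signal was scaled to its 75th percentile and set to the mean of the log2 percentiles. Outlying spots were left out. A probe was kept (24017 were) when the 2 arrays of some treatment both had it well above background, and the brightest probe per gene gave 15440 genes. The model (limma 3.58.1, R 4.3.3) had terms for the 4 treatments and for time, leaving 3 residual degrees of freedom, and p-values were adjusted over all genes. The replicate number in the labels is the time, so the term for time is the pairing of the arrays. Errors with ± are standard errors of the fit, and precision is limited by having 2 arrays per treatment. Where a gene was below background on both arrays of a treatment, a fold is a lower bound against the lowest signal well above background. The fits were tested on simulated data.

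The members and lists were chosen with earlier results of these data known. Of the lists, some of the called genes are named and others are not. Called genes left unnamed above include Oasl2 (-2.95), Ifi44 (-2.82) and Rtp4 (-2.60), with both agents minus control. The 11 alternatives, and each array left out in turn, are given in the closing section. Sequences are RefSeq's.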

Additional observations from a re-analysis of the deposited data

Results flagged for a closer look

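Mx1 was measured by 2 probes that were below background on every array, with 1 exception. One probe read 27.8 on the IL-13 array at 24 h and was called well above background there, while it read 2.75 and 5.55 on the control arrays at 12 h and 24 h. It stands out because it is a signal above the control arrays in a gene that no comparison used. The other Mx1 probe read 1.20 on that array, and 3.04 and 5.62 on the control arrays. The cause was not tested.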

How the results depend on the processing

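The effectors' median differences in the 5 treatment comparisons were negative in every alternative run, and no called gene changed its sign. Of the genes not called, Usp18 and Bst2 did so in 9 refits of these comparisons, each with 1 array left out. Without the control array at 24 h, Usp18 was at 0.36 with IL-13, and Bst2 at 0.09 with both agents, 0.23 with ATRA and 0.02 with IL-13, each minus control. The departure from the sum changed its sign in 7 such refits over 6 genes. Calls at the threshold were less stable. The alternatives for the pathway list were chosen after seeing the data.

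With normexp background correction the effectors called were 6 for ATRA against control, 1 for IL-13 against control and 0 for both agents against IL-13. The medians were then -0.61 for both agents against IL-13 and -0.30 for both agents against ATRA. The pathway genes called lower were 22 for ATRA, 8 for IL-13 and 1 for both agents against ATRA. Requiring detection on all 8 arrays, which leaves fewer genes tested, gave 6 effectors for ATRA and 1 for IL-13, and 22, 8 and 1 pathway genes in the order above. Trend and robust settings gave 6 effectors for ATRA and 3 for IL-13, and pathway counts of 27 for ATRA, 16 for IL-13, 13 for both agents against IL-13 and 2 against ATRA. With no filter on dim probes, which adds many dim genes to the test, 0 effectors and 0 pathway genes were called in any of these comparisons, and the median for both agents against IL-13 was -1.18.

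For both agents against IL-13, 1 effector was called after quantile normalization, with the authors' deposited values (median -1.11) and with the mean over probes. Fitted on only the arrays compared, 5 effectors were called for both agents against control and 0 against IL-13, with 5 pathway genes for ATRA, 0 for IL-13 and 0 for both agents against IL-13. Without the replicate block, which here is the term for time that pairs the arrays, 0 effectors were called for both agents against IL-13 and 2 pathway genes for IL-13 against control. With time as a random block these were 0 and 3.

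Leaving out 1 array at a time, with a lone array assumed to vary like the other groups, gave 1 to 7 effectors for both agents against control, 0 to 4 for ATRA, 0 to 1 for IL-13 and 0 to 3 for both agents against IL-13. The medians ran from -2.85 to -1.69 for both agents, -2.21 to -1.28 for ATRA and -1.42 to -0.62 for IL-13, each against control, from -1.40 to -0.79 for both agents against IL-13 and from -0.75 to -0.39 against ATRA. The pathway counts were 5 to 35 for both agents against control, 0 to 5 for ATRA, 0 to 4 for IL-13 and 0 to 2 for both agents against IL-13. The cause of these changes was not tested.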
